A study of Bos taurus with 24 samples.

Results

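In late antral follicles, cumulus cells carried less RNA of most replication and mitosis genes than the same cells did in early antral follicles, while the cyclin CCND2 and the inhibitor CDKN1B were higher there and the mitotic kinase PLK1 was not called. These genes belong to a list of 44 cell cycle genes: cyclins, cyclin-dependent kinases (CDKs) and their inhibitors, genes of replication licensing and nucleotide supply, and genes of the spindle, its checkpoint and the chromosomes. They were measured in 24 RNA-seq libraries of bovine granulosa cells, the somatic cells around the oocyte. Each listed symbol was matched by genome position to an Ensembl cow gene of the count table, which holds 27607 genes. Of the 44, 43 were matched, because no gene of the table lay at the position of the checkpoint gene MAD2L1. A further member, the cyclin gene CCND1, was too low to test, which left 42. The members comprise 8 genes that act in G1, the phase before DNA replication, 15 of S phase, in which DNA is replicated, and 21 of mitosis, of which 20 were matched.

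The 5 groups were granulosa cells of secondary follicles, which have no fluid-filled antrum (secondary_GC, 4 libraries), and cumulus or mural granulosa cells of early and late antral follicles (early_CC, early_MGC, late_CC and late_MGC, 5 libraries each). Cumulus cells lie next to the oocyte and mural granulosa cells line the follicle wall. The labels name no treatment or genotype for any group, and the study asked whether the ability of these cells to regrow their contacts with the oocyte changes along with gene expression. Nothing in the labels says whether the libraries came from separate animals or from pooled follicles, so p-values measure only the spread between these samples, which may be technical.

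D-type cyclins with CDK4 or CDK6 phosphorylate the retinoblastoma protein and so release E2F factors, which switch on the genes of DNA replication. Cyclins A and B with CDK1 then drive mitosis, whose genes are switched on later with the help of the factors MYBL2 and FOXM1, and the anaphase-promoting complex ends mitosis by marking cyclins and other proteins for destruction. Granulosa cells divide while follicles grow under follicle-stimulating hormone, and CCND2 is the D-type cyclin known for granulosa cell division.

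Total counts were between 8379801 and 31762400 per library, and levels are counts per 1000000 of a library's total (CPM) unless TPM, which divide counts by exon length and sum to 1000000 in each library, are named. Fold changes, their tests and the class means in log2 CPM use TMM scaling. Whether groups overlap is read from CPM of library totals, and a reading that TMM scaling alters is given beside it. The share of all genes without overlap was counted only for late_CC against late_MGC. Libraries late_MGC 3, late_CC 3 and early_MGC 4 are named below as the 3 libraries that stand apart. They correlated least with the other libraries of their groups, at means of 0.870, 0.9145 and 0.9205. Secondary_GC 2 came next at 0.9225, close to early_MGC 4, so no clear gap lies at this cut. In late_MGC 3 the granulosa receptor FSHR stood at 10.6 CPM, against 200.5 to 424 CPM in the other 23 libraries. All 11 listed granulosa markers were matched. Their summed level was 617 to 12916 CPM in late_MGC, with the lowest value in late_MGC 3. In late_CC it was 5825 to 32387 CPM and in early_CC 6258 to 7696 CPM. The 11 matched of 12 oocyte markers summed to 11.9 to 80.1 CPM in late_CC, 22.4 to 54.45 CPM in late_MGC and 9.63 to 21.5 CPM in early_CC. Mean KIT was 58.9 CPM in late_CC, 36.4 in late_MGC and 15.2 in early_CC, and BMP15 and FIGLA were at 0 in every group. The 9 matched of 10 theca and stroma markers summed to 205 to 2232 CPM in late_MGC, 150.4 to 676 CPM in late_CC and 188 to 763 CPM in early_CC. The stromal gene DCN stood at 276 CPM in late_MGC 3 against 2.22 to 3.69 CPM in the other 4 late_MGC libraries. In early_CC it had 12.5 to 146 CPM, and its mean in late_CC was 0.793 CPM. Other markers of the list differed from each other. Mean INSL3 was 94.2 CPM in early_CC, 402 in late_CC and 217 in late_MGC, and mean LUM 211, 43.4 and 334. CYP17A1 was at 0 in every group but late_MGC. Endothelial markers (7 of 7) summed to at most 46.3 CPM and blood cell markers (7 of 7, HBB at 0 in every group) to at most 10.3 CPM in any library. The part of these other cell types in the results was not tested. In such bulk samples, fewer cells of a dividing type and less RNA per cell cannot be told apart.

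From the early to the late antral stage, 32 of the 42 tested members fell in cumulus cells and 2 rose (late_CC against early_CC, edgeR quasi-likelihood test, adjusted p under 0.05 over all 14298 genes tested). Of all genes tested, 45.2% were called in this comparison and 22.7% were called lower. In both phases most genes fell: 13 of 15 S phase genes (median log2 fold change of all 15, -1.59) and 18 of 20 mitotic genes (median of all 20, -1.44), against a median of 0.039 over all genes tested. Among the 7 tested G1 genes, CCND2 and CDKN1B rose and CDK4 fell. The 8 genes not called were PLK1 and CENPE of mitosis, RRM1 and CCNE2 of S phase, and CCND3, CDK6, CDK2 and CDKN2C of G1. Without the 3 libraries that stand apart, 34 fell and 2 rose, against 26% of all genes called lower.

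Late cumulus cells also differed from late mural cells: 32 members were lower in late_CC than in late_MGC and 2 were higher, against 39.7% of all genes called either way and 20.8% called lower. They were 13 S phase genes (median of all 15, -1.39), 18 mitotic genes (median of all 20, -1.56) and CDK2, with CCND2 and CDKN1B higher. This comparison and the one above share the late_CC libraries. Without the 3 libraries that stand apart, 34 were lower and 2 higher, against 21.4% of all genes called lower. The change with stage differed between the cell types for 34 members in a test of the interaction, which takes the log2 change in cumulus cells minus that in mural cells. It was more negative in cumulus cells for 33 of them and more positive for CDKN1B, against 31.4% of all genes called in either direction and 16.9% called with a more negative change. Leaving those 3 libraries out gave 36 calls, of which 35 were more negative in cumulus cells, against 18.4% of all genes.

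In mural cells, 4 members rose from early to late antral follicles and none fell (late_MGC against early_MGC, 19.1% of all genes called and 9.76% called higher), namely CCND2, CDC6, RRM1 and AURKA; with RLE scaling or library totals 1 member, E2F1, was called lower (-1.52, adjusted p = 0.0447, and -1.54, adjusted p = 0.04). The median of the 42 was 0.43, against 0.050 over all genes. This count depended on single libraries. Without late_MGC 3, 15 members rose, 11 of them mitotic, against 11.7% of all genes, and the 4 named above were among them. Without all 3 libraries that stand apart 16 rose, again 11 of them mitotic, against 11.2% of all genes. Leaving out any other single library of the comparison gave 1 to 6 calls, with 2093 to 2633 over all genes. Around antrum formation few members were called. From secondary_GC to early_MGC, CDC6 rose and CCNE1 fell, 2 members against 9.1% of all genes, with a median of -0.001 over the members. From secondary_GC to early_CC no member was called by edgeR, against 1.99% of all genes. Of the 42 log2 fold changes 39 were positive (median 0.44), against 7328 of all 14298 genes (median 0.014). In that comparison 8 members, all higher, had an unadjusted p under 0.05 in the edgeR test. The share of all genes under that unadjusted threshold was not counted, so these 8 show no rise of the members. DESeq2 called 2 members, against 729 of all genes, and limma-voom called 1, against 603. Without the 3 libraries that stand apart 6 were called, against 9.2% of all genes. None of those libraries belongs to either group compared. The fit estimates the spread over all groups, and the part of that estimate in the change of the count was not tested. Early cumulus cells exceeded early mural cells in 4 members, CDK4, MCM5, PLK1 and AURKA. Of all genes 13.1% were called in that comparison and 6.7% were called higher. Without early_MGC 4 alone PLK1 and AURKA were the only members called, against 4.42% of all genes called higher. Without all 3 libraries that stand apart 10 members were higher, against 9.21% of all genes called higher.

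**Figure D1:**
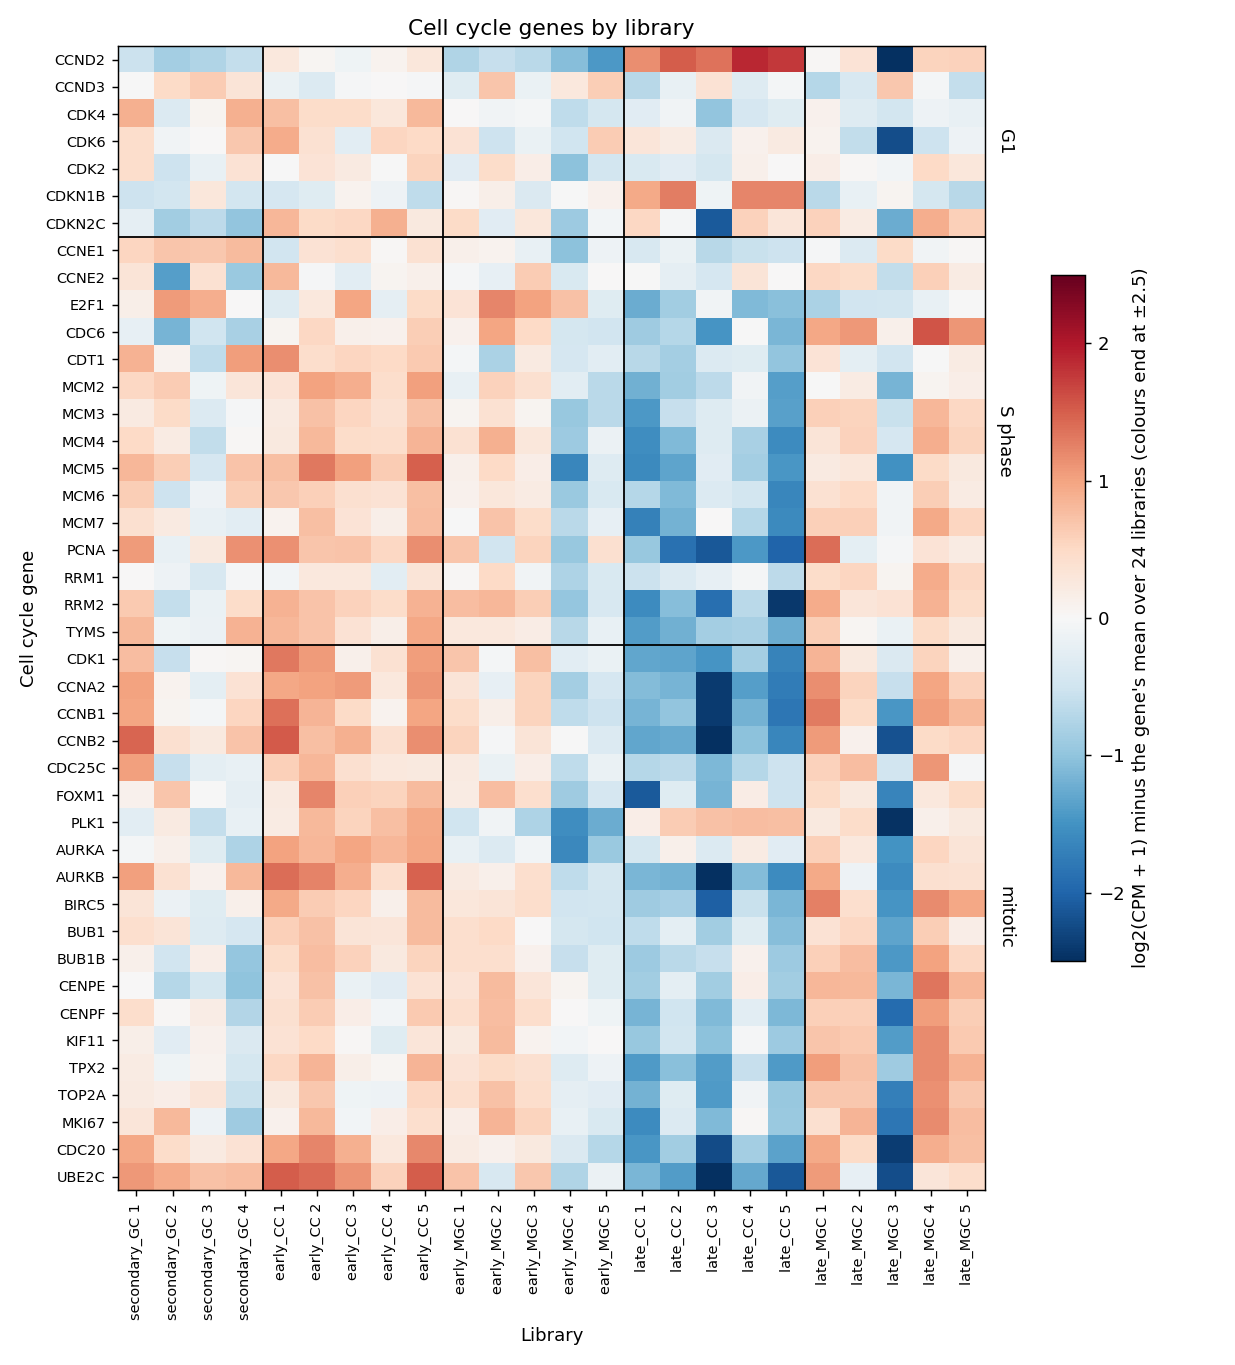
Levels of the 42 tested cell cycle genes (rows) in 24 libraries (columns), as log2(CPM + 1) minus the gene's own mean, with vertical lines between groups and horizontal lines between G1, S phase and mitotic genes. The late_CC columns are blue for most S phase and mitotic genes and red for CCND2, and late_MGC 3 is the lowest late_MGC library for all 20 mitotic genes.

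S phase and mitotic genes were also compared within each library, by the mean log2 CPM of the 15 S phase genes and of the 20 mitotic genes. S phase means were 5.02 to 5.44 in early_CC and 3.20 to 4.10 in late_CC, and mitotic means were 6.06 to 6.63 and 4.36 to 5.18, so neither overlapped between the 2 groups. Mural libraries overlapped in both classes, with S phase means of 4.30 to 5.25 in early_MGC and 4.41 to 5.50 in late_MGC, and mitotic means of 5.27 to 6.25 and 4.28 to 6.94. The mitotic mean exceeded the S phase mean by 1.17 ± 0.17 in early_CC, 1.12 ± 0.50 in late_CC, 1.08 ± 0.13 in early_MGC, 1.04 ± 0.66 in late_MGC (SD, n = 5 each) and 0.995 ± 0.26 in secondary_GC (SD, n = 4). With all libraries, this distance moved from early_CC to late_CC by less than its spread between libraries. The S phase mean went from 5.25 ± 0.15 to 3.68 ± 0.36 and the mitotic mean from 6.42 ± 0.24 to 4.802 ± 0.34. The distance was narrowest in late_CC 3, at 0.26 against 1.19 to 1.46 in the other late_CC libraries. Late_MGC 3 had -0.13 against 1.24 to 1.44 in the other late_MGC libraries. Without late_CC 3 the late_CC distance averaged 1.33. From early_CC to late_CC the distance rose from 0.294 to 0.516 by medians over members and fell from 0.852 to 0.62 in TPM. Its direction of change was therefore not settled. In late_MGC 3 all 20 mitotic genes were the lowest of the group, and so were 11 of 15 S phase genes.

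**Figure D2:**
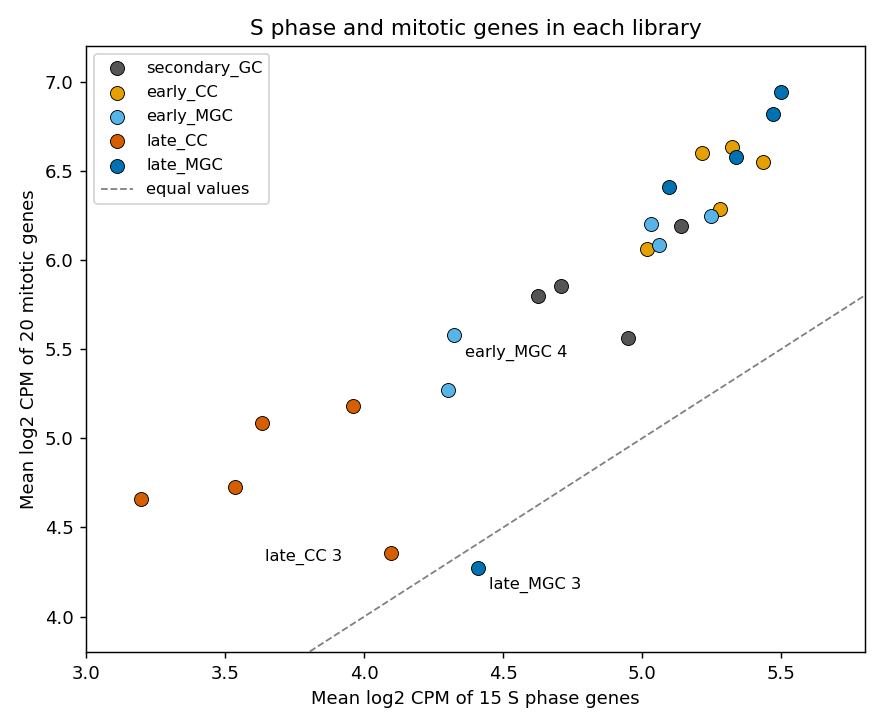
Mean log2 CPM of the 15 S phase genes (x axis) and of the 20 mitotic genes (y axis) in each library, coloured by group, with a dashed line where both are equal. The late_CC libraries sit at S phase means of 3.20 to 4.10, below all early_CC libraries, and late_CC 3 and late_MGC 3 lie nearest to the dashed line.

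Among the G1 genes, CCND2 was by far the most abundant D-type cyclin per unit of length, with 848 ± 182 TPM in late_CC and 328 ± 44.4 in early_CC (SD, n = 5). CCND3 had 8.03 ± 2.17 and 8.68 ± 0.897 TPM there, and CCND1 was absent from the counts of 23 libraries. CCND1 had 4 counts (0.240 CPM) in early_MGC 3, and the 0 counts of the other groups allow up to 0.0244 to 0.0402 CPM over a group, a limit of 3 counts that covers counting error only. Of the D-type cyclin kinases, CDK4 had 145 ± 26.04 TPM and CDK6 29.4 ± 8.74 TPM in early_CC, and CDK2, the partner of cyclins E and A, 17.8 ± 3.36 TPM.

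CCND2 (ENSBTAG00000016649, chr5:105763459-105787132, minus strand in ARS-UCD1.2, as are all positions here) stood at 535, 459.9, 414, 473 and 544 CPM in early_CC libraries 1 to 5 and at 999, 1283, 1149, 1651 and 1532 in late_CC. Mural libraries had 266, 300.1, 281, 214 and 165 CPM in early_MGC and 455, 565, 76.4, 654 and 665 in late_MGC, and secondary_GC had 306, 247, 263 and 297. Every late_CC library lay above every library of the other 4 groups, and late_MGC 3 lay below all others. CCND2 rose 2.72-fold in cumulus cells, with a log2 fold change of 1.45 ± 0.34 (adjusted p = 0.00112), and was higher in late_CC than in late_MGC by 1.21 ± 0.33 (adjusted p = 0.00541). In mural cells it rose by 1.09 ± 0.33 (adjusted p = 0.0229), and by 1.37 (adjusted p = 7.21e-06) without late_MGC 3; the rise lost its call without early_MGC 5, late_MGC 4 or late_MGC 5. The interaction for CCND2 was 0.36 ± 0.47 (adjusted p = 0.597), not called.

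CDKN1B encodes the CDK inhibitor p27 (ENSBTAG00000018254, chr5:97104351-97109627, minus strand). Its levels were 27.2, 29.4, 39.1, 33.5 and 23.2 CPM in early_CC and 72.1, 90.2, 34.1, 87.1 and 87.4 in late_CC. In early_MGC it had 37.7, 40.6, 28.3, 36.3 and 39.6 CPM, in late_MGC 22.7, 31.97, 38.8, 26.8 and 22.3 and in secondary_GC 25.5, 26.4, 45.1 and 26.3. In 4 of 5 late_CC libraries it exceeded every other library of the study, and the exception, late_CC 3 with 34.1 CPM, lay within the range of early_CC. CDKN1B rose by 1.27 ± 0.22 (adjusted p = 6.99e-05) in cumulus cells, was higher in late_CC than in late_MGC by 1.18 ± 0.22 (adjusted p = 0.00018), and in mural cells its log2 fold change was -0.28 ± 0.22 (adjusted p = 0.419). The interaction was 1.55 ± 0.32 (adjusted p = 0.000648), the only positive call among the members in that test.

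CDK4, the kinase partner of the D-type cyclins (ENSBTAG00000007160, chr5:55713433-55717031, plus strand), shares 12.9% of its exon bases with TSPAN31, whose reads in those bases cannot be told apart because counting ignored strand. It stood at 271, 221, 222, 195 and 284 CPM in early_CC and 132, 151, 80.1, 120.3 and 129.8 in late_CC, with no overlap. Mural libraries had 161, 151, 155, 103 and 118 CPM in early_MGC and 174, 128, 116, 147 and 141 in late_MGC, and secondary_GC had 298, 127, 169 and 299. CDK4 fell by 0.96 on the log2 scale in cumulus cells (SE 0.22, adjusted p = 0.000933), was higher in early_CC than in early_MGC by 0.68 ± 0.22 (adjusted p = 0.0388), and had a log2 fold change of 0.15 ± 0.22 (adjusted p = 0.677) in mural cells. The interaction was -1.104 ± 0.31 (adjusted p = 0.00761). Its call between the early cell types was lost without any 1 of 6 libraries (early_CC 1, 3 and 5, early_MGC 2, 4 and 5), among other settings.

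CDK6 had 61.96, 42, 26.7, 47.2 and 45.9 CPM in early_CC, 40.1, 37.1, 24.8, 34.6 and 37.97 in late_CC, 41.7, 22.3, 28.5, 22.7 and 50.7 in early_MGC, 34.4, 20.5, 6.11, 22.1 and 29.6 in late_MGC and 43.97, 30.3, 32.2 and 51.8 in secondary_GC. All groups overlapped, late_MGC 3 was the lowest library, and the log2 fold change in cumulus cells was -0.36 ± 0.32 (adjusted p = 0.38). For CDK2, which shares 4.0% of its exon bases with PMEL, levels were 26.3, 33.6, 30.9, 26.4 and 39.4 CPM in early_CC, 19.98, 21.7, 19.3, 28.9 and 26.6 in late_CC, 21.4, 36.9, 29.9, 12.4 and 19.02 in early_MGC, 29.6, 27.2, 25.1, 37.9 and 32.5 in late_MGC and 36.4, 18.2, 23.3 and 34.1 in secondary_GC. Its groups overlapped too, apart from early_CC and late_CC with TMM scaling, yet CDK2 was lower in late_CC than in late_MGC (log2 fold change -0.61 ± 0.22, adjusted p = 0.0306), with an interaction of -0.89 ± 0.31 (adjusted p = 0.0315). The call against late_MGC was lost without late_CC 1, 2 or 3 or late_MGC 1, 4 or 5. The interaction of CDK2 was lost without early_CC 5, early_MGC 4 or 5, late_CC 1 or 2 or late_MGC 1, 4 or 5, and both calls with library totals in place of TMM.

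CCND3, whose table gene was matched only by its end position, had 13.8, 12.04, 15.2, 15.7 and 15.2 CPM in early_CC, 9.22, 13.6, 20.1, 12.2 and 15.1 in late_CC, 12.3, 25.9, 13.8, 18.9 and 24.4 in early_MGC, 9.04, 11.5, 25.4, 15.02 and 9.96 in late_MGC and 15.5, 22.1, 24.7 and 19.8 in secondary_GC. The log2 fold change in cumulus cells was -0.019 ± 0.25 and in mural cells -0.35 ± 0.25, neither called. CDKN2C, the CDK4 and CDK6 inhibitor p18, had 59.2, 46.5, 48.04, 61.9 and 39.4 CPM in early_CC, 47.8, 31.8, 6.99, 49.7 and 41.2 in late_CC, 46.2, 27, 40.6, 17.1 and 31.3 in early_MGC, 49.5, 38.4, 13.4, 62.7 and 50.1 in late_MGC and 27.98, 17.6, 20.7 and 16.2 in secondary_GC. Every early_CC library lay above every secondary_GC library, with a log2 fold change of 1.35 ± 0.42 (adjusted p = 0.0916) that was not called, and late_CC 3 with 6.99 CPM lay far below the other late_CC libraries. Without the 3 libraries that stand apart the change of CDKN2C from secondary_GC to early_CC was called at 1.35 (adjusted p = 0.000332).

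**Figure D3:**
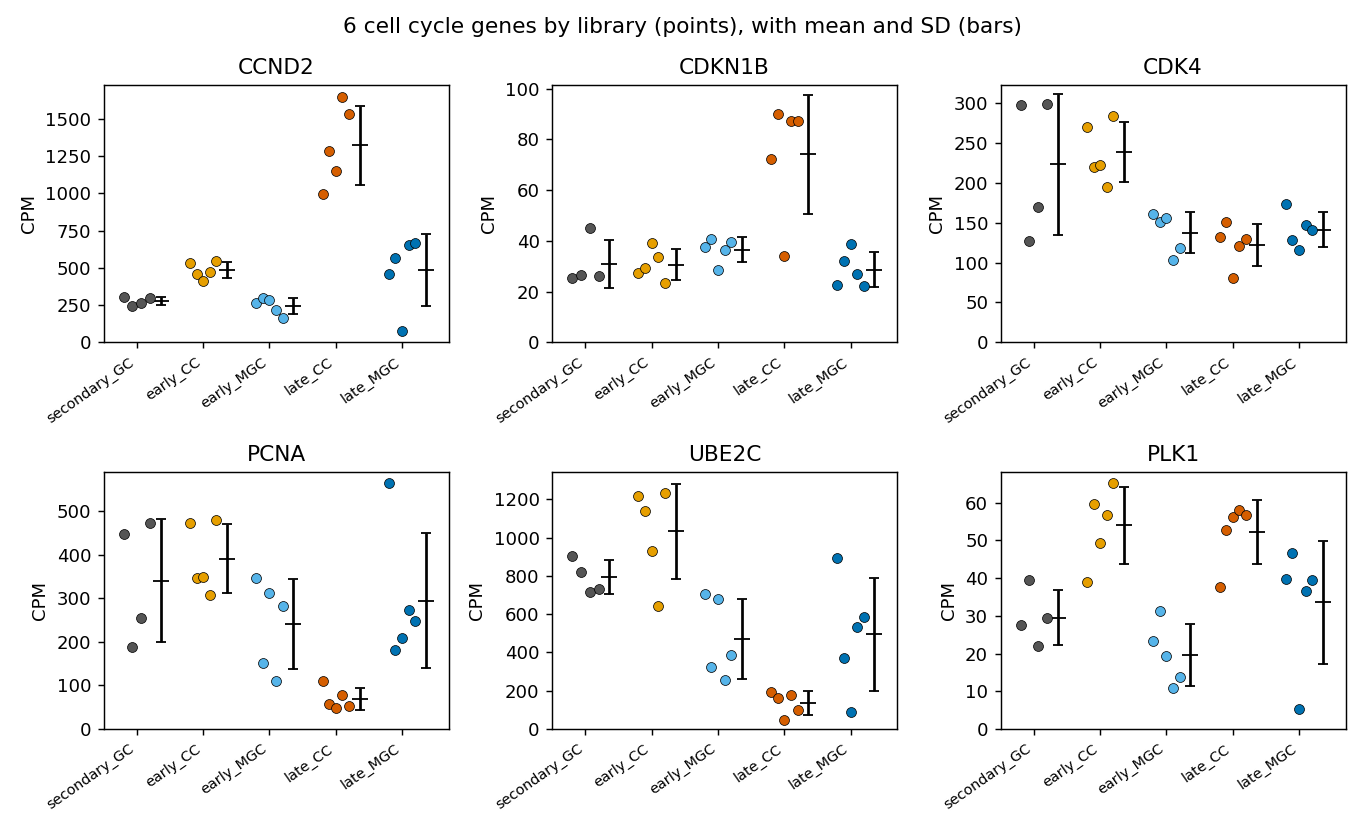
CPM of CCND2, CDKN1B, CDK4, PCNA, UBE2C and PLK1 in every library (points) by group, with group mean and SD to the right of the points. CCND2 is highest in all 5 late_CC libraries, PCNA is lowest there as a group, UBE2C falls from 641 to 1233 CPM in early_CC to 46.3 to 194 CPM in late_CC, and PLK1 overlaps between early_CC and late_CC.

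The S phase genes start with the E-type cyclins and E2F1, which act at the entry to replication. CCNE1 had 3.97, 7.81, 8.17, 6.08 and 7.91 CPM in early_CC, 4.24, 5.16, 3.25, 3.69 and 3.804 in late_CC, 6.54, 6.29, 5.09, 2.39 and 5.31 in early_MGC, 5.74, 4.47, 8.62, 5.47 and 6.03 in late_MGC and 8.93, 10.1, 9.99 and 10.9 in secondary_GC. It was highest in secondary_GC, where every library exceeded every early_MGC library, and from there to early_MGC it fell by 0.83 on the log2 scale (SE 0.26, adjusted p = 0.0458). That call was lost without any of 8 of the 9 libraries compared, early_MGC 1 being the exception. In cumulus cells CCNE1 fell by 0.73 (SE 0.25, adjusted p = 0.0189), a call lost without early_CC 3 and with offsets for exon length, and it was lower in late_CC than in late_MGC (log2 fold change -0.78 ± 0.25, adjusted p = 0.0151). CCNE2 had 28.1, 15.4, 12.9, 16.4 and 17.1 CPM in early_CC, 15.5, 13.3, 11.4, 19.7 and 15.8 in late_CC, 15.3, 13.5, 24.7, 11.7 and 15.8 in early_MGC, 22.6, 21.8, 9.86, 23.98 and 18.3 in late_MGC and 19.8, 5.399, 20.5 and 7.76 in secondary_GC. The CCNE2 groups overlapped throughout, and it was the only S phase gene whose lowest group mean was not in late_CC. Its log2 fold change was -0.26 ± 0.32 (adjusted p = 0.532) in cumulus cells and -0.59 ± 0.32 (adjusted p = 0.152) in late_CC against late_MGC.

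E2F1, the transcription factor of S phase genes, was among the lowest members, with 4 to 25 counts in the late_CC libraries and 18 to 40 in late_MGC. It had 1.32, 2.5, 4.75, 1.51 and 3.05 CPM in early_CC, 0.229, 0.5896, 1.73, 0.362 and 0.423 in late_CC, 2.72, 5.805, 4.85, 3.82 and 1.35 in early_MGC, 0.695, 1.09, 1.12, 1.56 and 1.898 in late_MGC and 2.22, 5.099, 4.46 and 1.92 in secondary_GC. In 4 late_CC libraries it lay below every other library of the study, while late_CC 3 lay within the range of early_CC. E2F1 fell by 1.93 on the log2 scale in cumulus cells (SE 0.54, adjusted p = 0.00528), and its change in mural cells was -1.47 ± 0.53 (adjusted p = 0.0507), just outside the threshold and called with RLE scaling, library totals, DESeq2, offsets for exon length, the 2 groups alone, or without early_MGC 5 or late_MGC 5. Of the members, E2F1 alone had a log2 fold change below -0.4 in mural cells.

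The licensing genes CDC6 and CDT1 load the replicative helicase onto origins. CDC6, which shares 14.8% of its exon bases with WIPF2 and whose table gene starts well before the RefSeq gene, had 14.9, 20.7, 15.6, 15.5 and 22.3 CPM in early_CC and 7.21, 8.303, 4.499, 14.1 and 5.92 in late_CC, with no overlap. Mural libraries had 15.4, 29.1, 20.6, 10.3 and 9.88 CPM in early_MGC and 28.9, 31.1, 15.6, 44.2 and 31.8 in late_MGC, and secondary_GC had 12.3, 5.799, 9.78 and 7.69. CDC6 was highest as a group in late_MGC: it rose by 1.08 ± 0.33 (adjusted p = 0.0395) from secondary_GC to early_MGC and by 0.95 ± 0.303 (adjusted p = 0.0296) from early_MGC to late_MGC, and it fell by 1.16 in cumulus cells (SE 0.31, adjusted p = 0.00322). Late_CC lay below late_MGC (log2 fold change -2.17 ± 0.32, adjusted p = 7.35e-06), again without overlap. The first 2 of these calls were lost without any 1 of 5 and of 6 libraries. For the rise from secondary_GC these were secondary_GC 2 and 4 and early_MGC 1, 2 and 3, and for the rise to late_MGC they were libraries 1, 4 and 5 of both mural groups. Both calls were also lost in a fit of the 2 groups alone and with library totals. The rise from secondary_GC was further lost without a filter, with limma-voom and with offsets for exon length.

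CDT1 was the least abundant tested member (ENSBTAG00000000638, chr18:14008412-14012515, plus strand). Its libraries had 3.43, 1.68, 1.88, 1.81 and 2.13 CPM in early_CC, 0.229, 0.0983, 0.554, 0.604 and 0 in late_CC, 0.926, 0.1399, 1.32, 0.477 and 0.653 in early_MGC, 1.495, 0.665, 0.429, 0.961 and 1.28 in late_MGC and 2.62, 1.1, 0.283 and 3.08 in secondary_GC. No late_CC library had more than 10 counts of it, and all 5 lay below all early_CC libraries. CDT1 fell by 2.87 on the log2 scale in cumulus cells (SE 0.72, adjusted p = 0.00221) and was lower in late_CC than in late_MGC (log2 fold change -1.95 ± 0.71, adjusted p = 0.032), a call lost without late_CC 1, 2 or 5 or late_MGC 1 or 5. The interaction, -3.45 ± 0.98 (adjusted p = 0.00928), was the most negative of the members.

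The 6 subunits of the replicative helicase, MCM2 to MCM7, all fell in cumulus cells, with log2 fold changes of -1.24 (MCM3) to -2.11 (MCM5). Of all genes tested, 22.7% were called lower in that comparison. No late_CC library of any subunit reached an early_CC library, and the share of all genes for which this held was not counted. MCM2 had 52.1, 83.2, 77.6, 55.7 and 83.7 CPM in early_CC and 17.1, 21.9, 25.5, 38 and 15.1 in late_CC. Early_MGC libraries had 35.9, 61.5, 54.3, 33.8 and 24.98 CPM, in late_MGC 40.2, 46.9, 17.7, 42.5 and 45.97 and in secondary_GC 58.7, 63.4, 37.5 and 50.7. Late_MGC 3 was the lowest late_MGC library for MCM2, at 17.7 CPM against 40.2 to 46.9. In cumulus cells the log2 fold change of MCM2 was -1.59 ± 0.28 (adjusted p = 7.81e-05), and its change in mural cells was -0.015 ± 0.28.

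MCM5, the subunit that fell most, had 94.5, 142, 116, 87.04 and 159 CPM in early_CC and 17.9, 21.9, 45.8, 30.5 and 19.9 in late_CC. It had 61.3, 79.1, 63.4, 17.4 and 44.7 CPM in early_MGC, 65.9, 68.6, 18.96, 78.4 and 66.8 in late_MGC and 101, 85.9, 41.9 and 92.1 in secondary_GC. MCM5 was higher in early_CC than in early_MGC without overlap, by 1.07 ± 0.36 (adjusted p = 0.0498), a call lost without any 1 library of the comparison other than early_MGC 2. The fall in cumulus cells was -2.11 ± 0.37 (adjusted p = 7.81e-05), and late_CC lay below late_MGC (log2 fold change -1.35 ± 0.36, adjusted p = 0.00476), with late_MGC 3 inside the late_CC range. MCM3, MCM4, MCM6 and MCM7, the last of which shares 4.4% of its exon bases with AP4M1, fell in cumulus cells with log2 fold changes of -1.24, -1.59, -1.36 and -1.33. Their means went from 61.1, 83.6, 77.4 and 106 CPM in early_CC to 25.7, 27.4, 29.9 and 41.1 in late_CC, against 57.6, 76.5, 66.4 and 113 in late_MGC.

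PCNA, the sliding clamp of the DNA polymerases (ENSBTAG00000006065, chr13:47430406-47436478, minus strand), was the S phase gene with the highest mean CPM in early_CC. It stood at 473, 346, 349, 307 and 481 CPM in early_CC and at 110.0, 57.7, 48.3, 78.6 and 52.3 in late_CC. In early_MGC it had 348, 152, 313, 109.8 and 282 CPM, in late_MGC 565, 181, 208, 273 and 247 and in secondary_GC 448, 189, 255 and 473. No late_CC library reached any early_CC or late_MGC library, and late_MGC 1 lay far above the other 4 late_MGC libraries. PCNA fell 5.6-fold in cumulus cells, a log2 fold change of -2.49 (SE 0.36, adjusted p = 8.02e-06), was lower in late_CC than in late_MGC (log2 fold change -2.33 ± 0.36, adjusted p = 1.6e-05), and had a log2 fold change of 0.45 ± 0.34 (adjusted p = 0.387) in mural cells.

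Ribonucleotide reductase, which makes deoxyribonucleotides, has the subunits RRM1 and RRM2. RRM2 had 81.9, 73.02, 65.8, 60.97 and 81.9 CPM in early_CC and 14.1, 20.5, 11.1, 27.1 and 7.47 in late_CC, and 76.3, 79.3, 68.1, 22.1 and 33.3 in early_MGC, 85.1, 54.8, 57.2, 81.1 and 60.8 in late_MGC and 70.5, 28.7, 39.1 and 61.1 in secondary_GC. Late_CC libraries lay below all early_CC and late_MGC libraries. RRM2 fell by 2.19 on the log2 scale in cumulus cells (SE 0.33, adjusted p = 1.06e-05) and was lower in late_CC than in late_MGC (log2 fold change -2.32 ± 0.33, adjusted p = 5.39e-06). RRM1 had 99.5, 126, 125, 87 and 131 CPM in early_CC, 71.5, 82.3, 90.3, 100.3 and 65.7 in late_CC, 106, 147, 98.2, 60.9 and 79.3 in early_MGC, 144, 151, 109.8, 198 and 149 in late_MGC and 105.2, 94.9, 78.6 and 102 in secondary_GC. Early_CC and late_CC overlapped for RRM1, whose change of -0.46 ± 0.19 (adjusted p = 0.0526) missed the threshold, but late_CC lay below every late_MGC library (log2 fold change -1.09 ± 0.19, adjusted p = 9.08e-05). In mural cells RRM1 rose by 0.73 ± 0.19 (adjusted p = 0.0095), a call that held without any 1 library but not in a fit of the 2 groups alone. TYMS, thymidylate synthase, fell in cumulus cells from 91.7 ± 20.8 to 27.3 ± 5.01 CPM (SD, n = 5 each), a log2 fold change of -1.74 (SE 0.24, adjusted p = 3.69e-06).

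**Figure D4:**
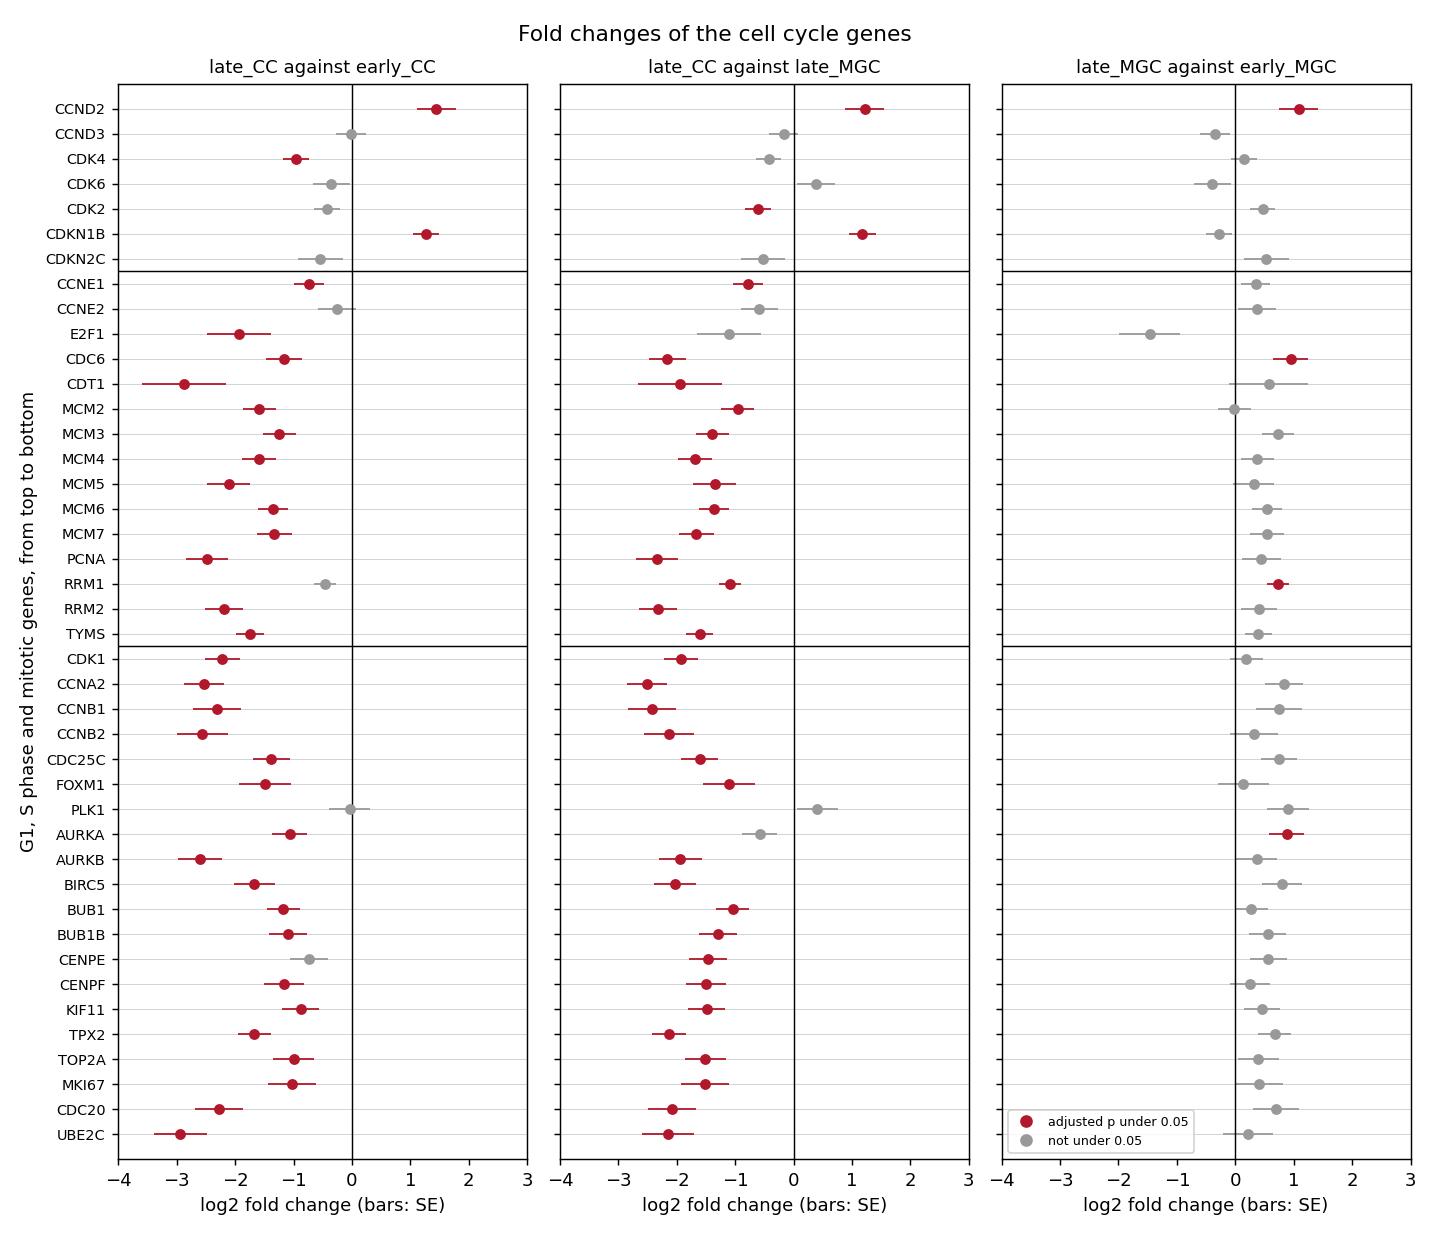
Log2 fold changes of the 42 tested genes, with SE as bars, for late_CC against early_CC, late_CC against late_MGC and late_MGC against early_MGC, red where the adjusted p was under 0.05. Nearly all S phase and mitotic genes lie left of 0 in the panels with late_CC, and most lie right of 0 in the mural panel, where 4 are red.

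Among the mitotic genes, the kinase CDK1 and its cyclins fell without overlap between the cumulus groups. The share of all genes without such overlap was not counted, and 22.7% of all genes were called lower. CDK1 (ENSBTAG00000010109, chr28:16488142-16582565, plus strand, a table gene that runs 43002 bases past the RefSeq end) had 111, 92.1, 47.7, 57.2 and 91.1 CPM in early_CC and 17.1, 16.9, 15.02, 23.7 and 12.96 in late_CC. It had 71.3, 41.8, 74.2, 36.04 and 38.9 CPM in early_MGC, 79.3, 51.7, 33.5, 64.1 and 47.3 in late_MGC and 74.6, 28.7, 44.6 and 44.9 in secondary_GC. The late_CC libraries were the 5 lowest of the study. CDK1 fell 4.66-fold in cumulus cells, a log2 fold change of -2.22 (SE 0.30, adjusted p = 3.21e-06), and was lower in late_CC than in late_MGC (log2 fold change -1.93 ± 0.296, adjusted p = 1.5e-05), with 0.19 ± 0.29 (adjusted p = 0.696) in mural cells.

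CCNB1, a B-type cyclin that activates CDK1 (ENSBTAG00000014239, chr20:10507979-10517702, minus strand), had 119, 81.4, 62.6, 47.9 and 90.1 CPM in early_CC and 19.6, 22.2, 7.68, 19.1 and 12.2 in late_CC. Early_MGC libraries had 62.4, 49.4, 66.3, 28.6 and 31.2 CPM, in late_MGC 112, 62.5, 15.6, 93.6 and 79.5 and in secondary_GC 89.9, 46.99, 43.6 and 65.7. Late_MGC 3 lay within the late_CC range and the other 4 late_MGC libraries lay above it. CCNB1 fell by 2.31 in cumulus cells (SE 0.41, adjusted p = 9.24e-05), was lower in late_CC than in late_MGC (log2 fold change -2.43 ± 0.41, adjusted p = 6.54e-05), and without late_MGC 3 it rose in mural cells by 1.01 (adjusted p = 0.0158), against 0.75 ± 0.39 (adjusted p = 0.193) with it.

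CCNB2, the other B-type cyclin, had 184, 107, 117, 83.3 and 143 CPM in early_CC, 24.96, 25.6, 8.03, 30.4 and 19.6 in late_CC, 92.9, 61.4, 78.98, 62.1 and 49.1 in early_MGC, 133, 67.4, 13.1, 88.1 and 92.04 in late_MGC and 174, 83.1, 74.9 and 103 in secondary_GC. CCNB2 fell by 2.56 on the log2 scale in cumulus cells (SE 0.44, adjusted p = 6.42e-05). The A-type cyclin CCNA2 had 47.1, 48.4, 50.6, 28.6 and 51.8 CPM in early_CC, 10.6, 9.97, 3.67, 8.397 and 6.34 in late_CC, 29.6, 20.3, 34.99, 12.6 and 17.3 in early_MGC, 53.8, 34.9, 15.5, 47.5 and 35.6 in late_MGC and 48.01, 25.2, 19.7 and 30.3 in secondary_GC. For CCNA2 no late_CC library reached any library of the other 4 groups, and late_CC 3 was the lowest of all. CCNA2 fell by 2.53 (SE 0.34, adjusted p = 3.87e-06) and lay below late_MGC (log2 fold change -2.504 ± 0.34, adjusted p = 3.81e-06), the largest difference between the late cell types among the members. Of the factors that turn on CDK1 and the mitotic genes, the phosphatase CDC25C was at 12.3 ± 2.37 CPM in early_CC and 4.72 ± 0.821 CPM in late_CC, and fell by 1.38 on the log2 scale (SE 0.32, adjusted p = 0.00101). The transcription factor FOXM1 stood at 14.1 ± 4.05 and 5.09 ± 3.14 CPM there and fell by 1.49 (SE 0.45, adjusted p = 0.00821; SD, n = 5 each). For FOXM1 the difference between late_CC and late_MGC, -1.11 ± 0.44 (adjusted p = 0.0483), was lost without any 1 of 8 libraries (all but late_CC 4 and late_MGC 3).

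The mitotic kinases PLK1 and AURKA were distributed over the groups in another way. PLK1 (ENSBTAG00000014453, chr25:21334598-21345432, plus strand), which shares 8.6% of its exon bases with ERN2, had 38.9, 59.7, 49.3, 56.7 and 65.3 CPM in early_CC and 37.7, 52.8, 56.3, 58 and 56.6 in late_CC. Mural libraries had 23.3, 31.4, 19.3, 10.7 and 13.7 CPM in early_MGC and 39.7, 46.6, 5.25, 36.7 and 39.6 in late_MGC, and secondary_GC had 27.5, 39.5, 21.9 and 29.3. The early_CC and late_CC libraries overlapped, and late_MGC 3 was the lowest library of the study. The log2 fold change of PLK1 was -0.035 ± 0.35 (adjusted p = 0.942) in cumulus cells and 0.403 ± 0.35 (adjusted p = 0.383) in late_CC against late_MGC. Its interaction, -0.94 ± 0.501 (adjusted p = 0.157), was not called either, so a difference in the change between the cell types was not shown for PLK1. In the early antral follicle PLK1 was higher in early_CC than in early_MGC without overlap, by 1.35 ± 0.36 (adjusted p = 0.0155). In mural cells its change was 0.91 ± 0.36 (adjusted p = 0.0776), and 1.19 (adjusted p = 0.000321) without late_MGC 3.

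AURKA, a kinase of centrosome maturation and spindle assembly (ENSBTAG00000013009, chr13:59555286-59570430, plus strand), had 126, 110.3, 124, 111 and 122 CPM in early_CC and 45.3, 67.4, 48.7, 71.3 and 50.8 in late_CC. In early_MGC it had 54.02, 48.5, 59.1, 19.6 and 32.1 CPM, in late_MGC 93.96, 74.4, 21.4, 89.8 and 77.1 and in secondary_GC 59.6, 67.3, 49.8 and 35.6. All early_CC libraries lay above all other libraries of the study, although with TMM scaling late_MGC 1 reached into their range, and late_CC overlapped with secondary_GC, early_MGC and, through late_MGC 3, late_MGC. AURKA was higher in early_CC than in early_MGC by 1.37 ± 0.31 (adjusted p = 0.00462), and the difference from secondary_GC, 1.19 ± 0.33 (adjusted p = 0.0543), just missed the threshold but was called without the 3 libraries that stand apart (1.19, adjusted p = 0.000538). It fell by 1.07 on the log2 scale in cumulus cells (SE 0.30, adjusted p = 0.00558), and late_CC against late_MGC was -0.58 ± 0.30 (adjusted p = 0.128). In mural cells AURKA rose by 0.88 ± 0.302 (adjusted p = 0.0424), and by 1.12 (adjusted p = 0.00072) without late_MGC 3. The call was lost without early_MGC 2, 4 or 5 or any late_MGC library other than late_MGC 3. It was also lost with RLE scaling, limma-voom, library totals and a fit of the 2 groups alone.

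AURKB, the kinase of the chromosomal passenger complex, had 167, 149, 118, 83.9 and 174 CPM in early_CC and 27.6, 27.02, 9.83, 29 and 20.4 in late_CC, and 73.5, 68.5, 84.2, 39.9 and 45.8 in early_MGC, 122, 57.2, 20.4, 83.05 and 81.03 in late_MGC and 129, 81.99, 67.7 and 109.6 in secondary_GC. No late_CC library reached early_CC, early_MGC or secondary_GC, and late_MGC 3 lay within the late_CC range. AURKB fell 6.08-fold in cumulus cells, a log2 fold change of -2.604 (SE 0.37, adjusted p = 7.51e-06). BIRC5, survivin, a subunit of the same complex, fell from 181 ± 37.1 to 57.3 ± 19.4 CPM (SD, n = 5 each), a log2 fold change of -1.67 (SE 0.36, adjusted p = 0.000527), and stood at 194 ± 98.2 CPM in late_MGC.

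The checkpoint kinases BUB1 and BUB1B fell in cumulus cells, with log2 fold changes of -1.17 ± 0.28 (adjusted p = 0.00151) and -1.097 ± 0.32 (adjusted p = 0.00702), to 35.7 ± 8.93 and 35.4 ± 11.96 CPM in late_CC. Of the kinetochore genes, CENPF was at 279 ± 57.9 CPM in early_CC and 124 ± 38.2 CPM in late_CC, and fell by 1.17 on the log2 scale (SE 0.34, adjusted p = 0.0073). The kinetochore motor CENPE went from 86.1 ± 24.9 to 51.99 ± 19.1 CPM, a change of -0.74 ± 0.32 (adjusted p = 0.0666) that was not called, with overlapping groups. Against late_MGC, CENPE was lower in late_CC (log2 fold change -1.47 ± 0.33, adjusted p = 0.00102). KIF11, the motor that separates the spindle poles, fell by 0.88 (SE 0.31, adjusted p = 0.0227), a call lost without early_CC 1 or 2 or late_CC 1, 3 or 5 and with limma-voom. TPX2, which activates AURKA on spindle microtubules, fell by 1.67 (SE 0.29, adjusted p = 4.92e-05), to 48.1 ± 13.98 CPM in late_CC against 178 ± 72.1 in late_MGC (SD, n = 5 for each group).

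TOP2A, the topoisomerase that untangles sister chromosomes, had 314, 422, 245, 242 and 380.0 CPM in early_CC and 116, 213, 97.7, 247 and 136 in late_CC. Early_MGC libraries had 353, 442, 361, 227 and 218 CPM, in late_MGC 423, 422, 80.5, 586 and 420.0 and in secondary_GC 310.1, 297, 328 and 180.3. Late_CC 4 with 247 CPM lay above early_CC 3 and 4, so the cumulus groups overlapped, which they did not with TMM scaling. TOP2A fell by 0.997 on the log2 scale (SE 0.35, adjusted p = 0.0227), a call lost without early_CC 2 or late_CC 1, 3 or 5, and was lower in late_CC than in late_MGC (log2 fold change -1.51 ± 0.35, adjusted p = 0.00152).

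MKI67, which coats mitotic chromosomes and is the usual marker of dividing cells (ENSBTAG00000002444, chr26:47507654-47537887, minus strand), had 60.1, 98.9, 53.2, 62.95 and 75.3 CPM in early_CC and 18.03, 44.1, 25.5, 56.8 and 28.95 in late_CC. Mural libraries had 62.5, 102, 82.2, 49.05 and 42.6 CPM in early_MGC and 74.4, 101, 15.2, 129 and 96.6 in late_MGC, and secondary_GC had 68.8, 98.3, 51.4 and 29.6. Late_CC 4 lay within the early_CC range, though not with TMM scaling, and late_MGC 3 below every other library. MKI67 fell by 1.03 on the log2 scale in cumulus cells (SE 0.41, adjusted p = 0.042), a call that was lost without early_CC 1, 2, 4 or 5 or late_CC 1, 3 or 5. Late_CC against late_MGC was -1.51 ± 0.41 (adjusted p = 0.0053), and the interaction, -1.44 ± 0.57 (adjusted p = 0.0565), just missed the threshold.

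UBE2C, the ubiquitin-conjugating enzyme of the anaphase-promoting complex (ENSBTAG00000016746, chr13:74586517-74593327, plus strand), was the mitotic member with the highest CPM in early_CC and shares 14.7% of its exon bases with DNTTIP1. It had 1219.5, 1138, 932, 641 and 1233 CPM in early_CC and 194, 162, 46.3, 175 and 97.7 in late_CC. In early_MGC it had 705, 323, 682, 255 and 388 CPM, in late_MGC 894, 372, 90.8, 531 and 583 and in secondary_GC 906, 818, 715 and 731. Late_CC libraries lay below every early_CC, early_MGC and secondary_GC library, and late_MGC 3 lay among them. UBE2C fell 7.66-fold in cumulus cells, a log2 fold change of -2.94 (SE 0.46, adjusted p = 2.44e-05), the largest fall of the members. CDC20, the activator of the same complex, fell from 111 ± 26.5 to 23.1 ± 8.22 CPM (SD, n = 5 each), a log2 fold change of -2.28 (SE 0.41, adjusted p = 0.000113).

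The overlap between late_CC and late_MGC rested on late_MGC 3 for many mitotic genes. With it, every late_CC library lay below every late_MGC library for 3 of 20 mitotic genes and 6 of 15 S phase genes, against 8.32% of all genes tested. Without it, this held for 19 and 12, against 12.3% of all genes tested, and for 19 and 13 with TMM scaling. The genes that still overlapped were PLK1 of mitosis and CCNE1, CCNE2 and E2F1 of S phase.

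Among the mitotic genes, longer exons went with a smaller fall. Over all 14298 genes tested, log2 fold changes of late_CC against early_CC had a Spearman correlation with summed exon length of 0.285, and over the 20 mitotic genes of 0.65, against 0.264 over the 15 S phase genes and 0.143 over all 42 members. These are correlations across genes of the same libraries, and genes are not independent replicates. The 5 mitotic genes with at least 4000 exon bases, MKI67, CENPF, CENPE, TOP2A and KIF11, had a median of -0.997 against -1.67 in the 15 shorter ones, while all tested genes of at least 4000 bases had a median of 0.56 and the shorter ones of -0.11. With offsets that remove each library's trend with length, a setting added after seeing the data, the 5 long and 15 short mitotic genes had medians of -1.48 and -1.82. MKI67 then stood at -1.77 (adjusted p = 0.00233), CENPE at -1.39 (0.00513) and RRM1 at -0.69 (0.00472), all called, and PLK1 at -0.041 (0.937). The number of members called was 35 with these offsets, 33 of them lower, against 34 and 32 without. Whether the length trend comes from the RNA, the library or the cells was not tested.

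**Figure D5:**
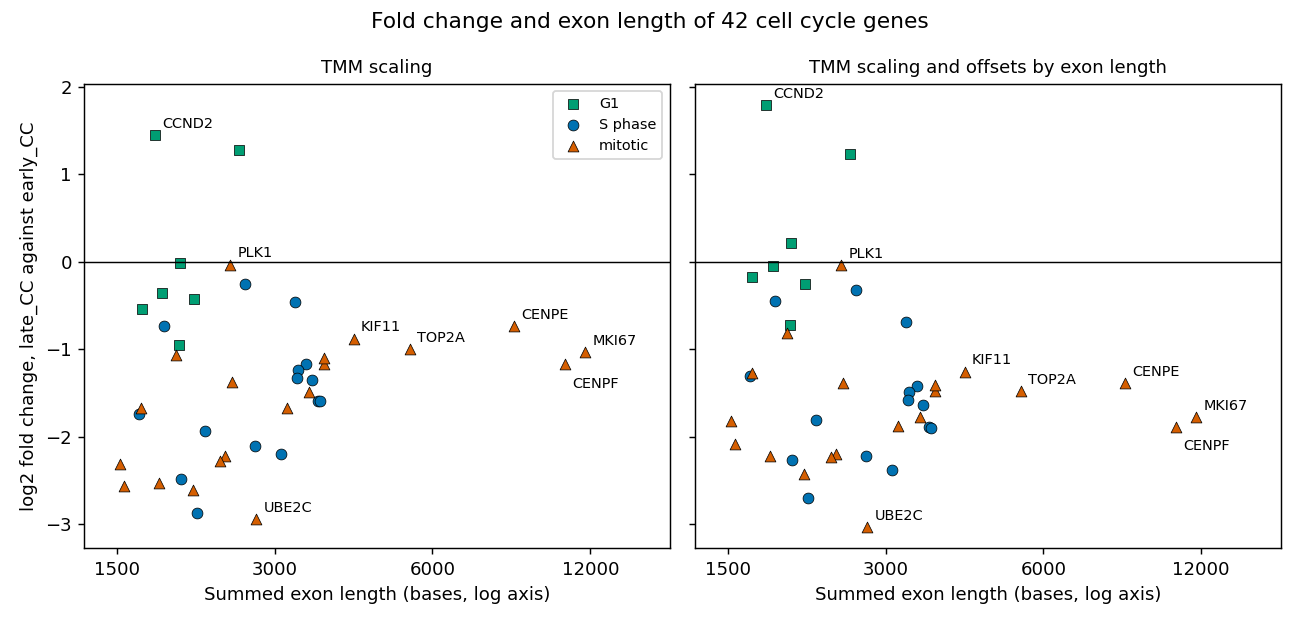
Log2 fold change of late_CC against early_CC (y axis) and summed exon length on a log axis (x axis) for the 42 tested genes, with TMM scaling alone (left) and with offsets for each library's length trend (right). The 5 longest mitotic genes lie between -0.74 and -1.17 on the left and between -1.26 and -1.89 on the right, and PLK1 lies near 0 in both.

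Further genes of the same pathways were read from 4 lists. Of 39 tested replication genes outside the members (of 41 listed), 25 fell and 2 rose in cumulus cells from early to late antral follicles, with a median log2 fold change of -0.92. Examples are the single-strand binding subunit RPA2 at -2.58 ± 0.37 (adjusted p = 7.43e-06) and the polymerase subunit POLE2 at -2.58 ± 0.44 (adjusted p = 4.62e-05). The 2 that rose were the clamp loader subunit RFC1 at 0.77 ± 0.17 (adjusted p = 0.000741) and the origin subunit ORC2 at 0.596 ± 0.196 (adjusted p = 0.0156). Late_CC against late_MGC had 23 lower and 2 higher of these 39 (20.8% of all genes were lower), and late_MGC against early_MGC 5 higher and none lower (9.76% of all genes were higher).

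Of 46 tested mitotic genes outside the members (of 48 listed), 36 fell and none rose in cumulus cells (median -1.51). The largest falls were those of CDCA3 (-2.99 ± 0.50, adjusted p = 5.7e-05), the kinetochore subunit SPC24 (-2.796 ± 0.33, adjusted p = 7.95e-07), the CDK subunit CKS1B (-2.63 ± 0.31, adjusted p = 6.75e-07) and securin, PTTG1 (-2.42 ± 0.48, adjusted p = 0.000282). In late_CC against late_MGC 41 of the 46 were lower and none higher, against 20.8% of all genes lower. In late_MGC against early_MGC 3 were higher and none lower, against 9.76% of all genes higher. Over all genes tested 22.7% were called lower in cumulus cells.

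Of 15 tested CDK inhibitors, pocket proteins and repressors (of 19 listed), 3 rose and 4 fell in cumulus cells, a share near that of all genes, of which 22.5% were called higher and 22.7% lower. The antiproliferative gene BTG1 rose by 1.12 ± 0.18 (adjusted p = 2.04e-05), the E2F repressor E2F6 by 0.82 ± 0.21 (adjusted p = 0.00204) and the retinoblastoma gene RB1 by 0.699 ± 0.18 (adjusted p = 0.00298). TOB1, a relative of BTG1, fell most of this list, with -1.502 ± 0.25 (adjusted p = 3.07e-05). Of 16 activators of the E2F and mitotic programmes, 2 rose and 7 fell, against the same 22.5% and 22.7% of all genes. E2F3, at 2.01 ± 0.83 (adjusted p = 0.0497), and MYC, at 1.202 ± 0.24 (adjusted p = 0.000233), rose, while E2F2 was lower, at -3.16 ± 0.997 (adjusted p = 0.0118) and CKS1B, which is also on the mitotic list, fell as given above.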

How the data were processed

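RNA of 24 libraries of bovine granulosa cells was sequenced from low-input cDNA. Per the file headers the authors counted reads per gene with featureCounts 2.0.0 over the exons of an Ensembl annotation of ARS-UCD1.2, without a strand option, and the deposited values are raw counts beside the summed exon length of each gene. The submitters' processing notes also list fastp 0.20.0, HISAT2 2.1.0, SAMtools 1.10 and the build bosTau9. A further column of values (1), matched to no sample by its name, was not used. Columns of secondary_GC and late_MGC carry no usable sample number, so these libraries are numbered by column order.

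Symbols came from gene positions in RefSeq's ARS-UCD2.0 annotation, taking pairs in which each gene was the one that overlapped the other most, by 0.5 or more of its span. After a shift of 1000000 bases 1004 of 12219 expressed genes would still have received a symbol, against 10806 without, so a single name can be wrong. CCND3 was matched by an end within 20 bases. No promoter or protein sequence was used here.

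Counts of all libraries entered 1 model by group in edgeR 4.0.16 (R 4.3.3; quasi-likelihood test). Scaling was TMM, low genes were removed by filterByExpr, and p-values were adjusted after Benjamini and Hochberg over 14298 genes (threshold 0.05). The biological coefficient of variation was 42.4%. Alternatives used RLE scaling, no filter, DESeq2 1.42.0, limma 3.58.1 (voom) and library totals. The steps were tested on simulated data. No 2 of the libraries of a group were copies (46 pairs, chi-square over degrees of freedom at least 18.6). CPM printed per library or group divide by total counts without TMM. TPM are counts per exon length scaled to a sum of 1000000. Log2 CPM used a prior count of 2.

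The members, lists and tests were chosen with earlier results of these data known. Values in every library are given for 19 set members and, per comparison and class, for the 3 called members with the largest change, and for pathway lists for at most 4 genes that changed most or against the rest.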

Additional observations from a re-analysis of the deposited data

Results flagged for a closer look

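Single libraries stood far from the rest of their group in 15 of 155 groups of values examined (9.68%). A chance rate of about 1 in 20 holds for independent values with a normal spread. It is no yardstick here, because the genes share libraries and the class means are made from members. CCND1 was also counted in groups where it was at 0 throughout and could not be flagged. Of the 15 flagged, 7 came from late_MGC. Late_MGC 3 was low for AURKA (21.4 CPM against 74.4 to 94.0 in the other 4), PLK1 (5.25 against 36.7 to 46.6), MCM2 (17.7 against 40.2 to 46.9) and MCM5 (18.96 against 65.9 to 78.4), and for the mean of the mitotic genes (4.28 against 6.41 to 6.94 log2 CPM) and its distance from the S phase mean (-0.134 against 1.24 to 1.44). Late_MGC 1 was high for PCNA, at 565 CPM against 181 to 273. In late_CC, library 3 was high for E2F1 (1.73 CPM against 0.229 to 0.590) and low for the distance between the classes (0.258 against 1.19 to 1.46), and library 1 was low for PLK1 (37.7 CPM against 52.8 to 58.0). Early_CC 1 was high for CCNE2 (28.1 CPM against 12.9 to 17.1) and CDT1 (3.43 against 1.68 to 2.13), and early_CC 4 was low for CCNA2 (28.6 against 47.1 to 51.8). Secondary_GC 3 was high for CDKN1B (45.1 CPM against 25.5 to 26.4), and early_MGC 3 held the only counts of CCND1 (0.240 CPM).

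The change from early to late antral follicles differed between cumulus and mural cells for 34 members by the interaction test, given here as the log2 change in cumulus minus that in mural cells. For G1 genes it was CDK4 -1.10, CDK2 -0.89 and CDKN1B 1.55. Among S phase genes the values were CCNE1 -1.08, CDC6 -2.11, CDT1 -3.45, MCM2 -1.57, MCM3 -1.98, MCM4 -1.96, MCM5 -2.42, MCM6 -1.90, MCM7 -1.87, PCNA -2.94, RRM1 -1.19, RRM2 -2.60 and TYMS -2.13. The mitotic genes had CDK1 -2.41, CCNA2 -3.36, CCNB1 -3.06, CCNB2 -2.88, CDC25C -2.12, FOXM1 -1.63, AURKA -1.95, AURKB -2.97, BIRC5 -2.47, BUB1 -1.45, BUB1B -1.65, CENPE -1.30, CENPF -1.42, KIF11 -1.34, TPX2 -2.35, TOP2A -1.39, CDC20 -2.97 and UBE2C -3.16. CDKN1B was the only one of these 34 with a positive value. Some of the calls rested on single libraries. That of FOXM1 was lost without any 1 of 15 libraries and that of TOP2A without any 1 of 10. For CENPE and CDK2 this held for 8 libraries each, for CENPF for 3 and for KIF11 for 2. With limma-voom the calls of FOXM1, TOP2A, CENPE, CENPF and KIF11 were lost. The call of CCNE1 was lost without the 3 libraries that stand apart, with library totals and with offsets for exon length.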

How the results depend on the processing

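No log2 fold change that was called changed sign under any alternative run. The counts of members called moved little for late_CC against early_CC (30 to 37, 34 as reported), late_CC against late_MGC (30 to 36) and the interaction (28 to 37), and leaving out 1 library gave 31 to 35, 31 to 36 and 28 to 37. Over all genes the calls in these settings were 4267 to 7089 (6457 as reported), 3745 to 6039 (5673) and 3757 to 5138 (4486). The other counts were small and moved. Calls over all genes moved too and are given in brackets. For early_MGC against secondary_GC 2 were called as reported (1301). A 2-fold minimum gave 1 (689), limma-voom 1 (1428), the 2 groups alone 1 (1006) and library totals 1 (1220). No filter gave 0 (873) and offsets for exon length 0 (1350). Leaving out 1 library gave 0 to 1 (516 to 1524), and leaving out the 3 libraries that stand apart gave 3, all higher (1929). For early_CC against secondary_GC (0 as reported, 285 over all genes), DESeq2 gave 2 (729) and limma-voom 1 (603). The 2 groups alone gave 6 (964), and leaving out the 3 libraries that stand apart 6 (1304). For late_MGC against early_MGC 4 were called as reported (2725). A 2-fold minimum gave 1 (1563), the 2 groups alone 1 (1612), limma-voom 2 (2518) and offsets for exon length 7 (3230). Leaving out 1 library gave 1 to 15 (2093 to 3396) and leaving out the 3 libraries 16 (3378). For early_CC against early_MGC (4 as reported, 1871 over all genes), no filter gave 2 (1474) and library totals 7 (1835). The 2 groups alone gave 10 (3035). Leaving out 1 library gave 2 to 5 (1222 to 1761) and leaving out the 3 libraries 10 (2484). The causes were not tested.

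With the replicate number as a block in fits of the 2 groups alone, early_CC against early_MGC had 17 calls, with 3405 over all genes. Late_CC against early_CC then had 37, with 6725 over all genes. Without the block these fits had 10 calls (3035 over all genes) and 37 calls (6829 over all genes). The check used did not settle whether the numbers pair the libraries, because same-numbered deviations correlated only at -0.147 to 0.242. Number 1 matched its own number best in each pair of groups checked. Number 2 did so only between early_CC and early_MGC, and the other numbers in no pair. Library totals in place of TMM shifted the median log2 change of all genes by -0.139 in early_MGC against secondary_GC, -0.102 in late_MGC against early_MGC, 0.103 in early_CC against early_MGC and 0.195 in late_CC against late_MGC. The share of all calls that were higher then went from 55.1% to 29.3%, from 51.2% to 36.9%, from 51.2% to 67.8% and from 47.7% to 61.3%. The distance of mitotic over S phase genes in secondary_GC, early_CC, early_MGC, late_CC and late_MGC was 0.115, 0.294, 0.343, 0.516 and 0.215 by medians over members. In TPM it was 0.666, 0.852, 0.709 and 0.62 in the first 4 of these. Without 1 library it was 0.936 to 1.12, 1.12 to 1.21, 1.04 to 1.11, 1.03 to 1.33 and 0.942 to 1.34. Depth limited CDT1 and E2F1, with 0 to 25 counts in the late_CC libraries. The settings without the 3 libraries, with library totals and with exon length offsets were chosen after seeing the data.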
